A study of Homo sapiens with 4 samples.

Results

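The myosins described here are 8 genes of the actin-based motor family: the non-muscle myosin II heavy chains MYH14, MYH9 and MYH10, and the unconventional myosins MYO5C, MYO5A, MYO5B, MYO6 and MYO10. Their N6-methyladenosine (m6A) intervals were all entries of the deposited lists that overlapped the window of a gene on its strand, in hg19 positions. The windows held 113 of the 24729 listed intervals, 42 of 11038 in the list of smoke-exposed cells and 71 of 13691 in the list of smoke-exposed cells with METTL3 knockdown. The genes were chosen by their numbers of listed intervals in these same lists, so those numbers are a description and carry no test.

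The lists come from MeRIP-seq of 16-HBE, an established human bronchial epithelial line, in which RNA precipitated with an m6A antibody was sequenced beside input RNA. All cells, of both conditions, received cigarette smoke extract (CSE) at 5% over 24 h, and cells without extract were not analysed here. The CSE condition carries the genotype label WT. The other condition is labelled as a knockdown, by siRNA, of METTL3, the catalytic subunit of the m6A writer complex. No control siRNA is named for the CSE condition, so knockdown and transfection cannot be told apart, and the lists hold no transcript levels by which the knockdown could be checked. The 4 samples are the precipitated and the input RNA of either condition. Each condition has 1 list, so no value below has replicate error.

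Myosins convert ATP hydrolysis into movement along actin filaments. The amino-terminal end of the heavy chain forms the motor head, a neck binds light chains or calmodulin, and the carboxy-terminal tail forms a coiled coil or binds cargo. In epithelial cells myosin II filaments contract the actin cortex and the belt at cell junctions, class V myosins carry vesicles and recycling endosomes, myosin VI moves towards the minus end of actin in endocytosis, and myosin X carries cargo to the tips of filopodia. m6A is written co-transcriptionally, most often at an adenosine followed by cytosine and preceded by purines, and is known for dense placement near stop codons and in long exons.

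Nearly every interval was a whole exon. Of the 73 distinct intervals in the 8 windows, 69 had the width of an exon of the same gene in GENCODE release 29, and the distances between these intervals equalled the distances between the exons. GENCODE 29 describes another genome build, so only widths and spacings were compared and no position was carried over. For comparison by width alone, each gene was paired with each gene of another myosin class. On average over these 44 pairings, 18.0% of the widths equalled an exon length of the other gene, with a range of 0.0% to 70.0%. Genes of the same class were not paired, and spacing was not used in this comparison. The match of widths and spacings places each window on the gene named for it. It also means that the width of an interval is the length of its exon and not a width of enrichment. Exon numbers below count from the 5′ end of the GENCODE transcript with the most matches.

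The sequences of the exons on which the results turn are given first, as read from the GENCODE 29 transcripts in the direction of the mRNA. Capitals mark 6 words of 4 letters that hold the common core of m6A sites, namely GGAC and, beside it, AGAC, then TGAC as well as GAAC, and lastly AAAC together with TAAC. These words cannot overlap one another, and only the mRNA strand was searched. A match is a description and not a methylated site. The first set is the 209 nt exon that was listed only with knockdown in all of the 3 myosin II genes. It is shown for MYH9, where the interval lay at chr22:36681167-36681375, and for MYH10, at chr17:8383428-8383636, both on the minus strand.
MYH9 exon 38: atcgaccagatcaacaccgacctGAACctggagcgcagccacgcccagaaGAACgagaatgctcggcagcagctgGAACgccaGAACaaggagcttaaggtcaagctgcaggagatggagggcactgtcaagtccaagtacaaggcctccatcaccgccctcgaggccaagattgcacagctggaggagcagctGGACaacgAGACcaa
MYH10 exon 38: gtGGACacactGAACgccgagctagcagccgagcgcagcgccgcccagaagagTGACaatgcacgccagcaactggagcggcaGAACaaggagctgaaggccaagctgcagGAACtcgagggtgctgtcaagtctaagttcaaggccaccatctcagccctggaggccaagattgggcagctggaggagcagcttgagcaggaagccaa

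The second set is the 207 nt exon, which was listed in both conditions in MYH14 and MYH10 and only with knockdown in MYH9. Its intervals were chr19:50771418-50771624 (plus), chr22:36696897-36697103 (minus) and chr17:8415769-8415975 (minus).
MYH14 exon 23: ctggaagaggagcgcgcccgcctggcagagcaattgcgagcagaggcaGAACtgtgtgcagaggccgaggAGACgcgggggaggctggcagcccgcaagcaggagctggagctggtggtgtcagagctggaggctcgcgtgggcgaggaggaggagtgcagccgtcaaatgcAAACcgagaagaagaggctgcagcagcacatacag
MYH9 exon 22: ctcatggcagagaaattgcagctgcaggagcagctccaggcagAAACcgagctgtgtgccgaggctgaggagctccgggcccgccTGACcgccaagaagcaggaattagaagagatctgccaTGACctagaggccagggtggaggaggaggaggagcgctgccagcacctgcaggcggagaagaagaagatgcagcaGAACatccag
MYH10 exon 22: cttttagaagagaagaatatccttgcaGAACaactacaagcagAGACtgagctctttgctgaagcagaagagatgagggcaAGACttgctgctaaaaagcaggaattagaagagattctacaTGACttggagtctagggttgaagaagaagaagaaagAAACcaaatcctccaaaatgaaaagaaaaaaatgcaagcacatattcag

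Short exons listed only with knockdown are shown by exon 23 of MYO5C, at chr15:52527867-52527960, and exon 23 of MYO5A, at chr15:52659228-52659321, both 94 nt on the minus strand.
MYO5C exon 23: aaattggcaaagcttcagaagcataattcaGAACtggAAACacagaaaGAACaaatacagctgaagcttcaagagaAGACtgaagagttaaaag
MYO5A exon 23: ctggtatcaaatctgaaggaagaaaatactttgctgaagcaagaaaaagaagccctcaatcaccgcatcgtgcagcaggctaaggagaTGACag

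Exons with scores at or near the top of both lists are shown by MYO6 exon 26 at chr6:76599774-76599982 (plus), MYO6 exon 27 at chr6:76600945-76601023 (plus) and MYO10 exon 23 at chr5:16703034-16703267 (minus). Long runs of A and G are visible in these 3 exons. Not shown are MYH9 exons 31 and 32 and MYO10 exon 25, which scored 3100 in both lists. Their longest runs of A and G were shorter, at 11, 12 and 11 nt.
MYO6 exon 26: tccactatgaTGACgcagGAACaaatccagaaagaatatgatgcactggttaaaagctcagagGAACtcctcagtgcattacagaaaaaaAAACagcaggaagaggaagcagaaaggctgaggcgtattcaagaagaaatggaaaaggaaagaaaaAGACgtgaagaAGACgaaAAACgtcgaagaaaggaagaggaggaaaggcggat
MYO6 exon 27: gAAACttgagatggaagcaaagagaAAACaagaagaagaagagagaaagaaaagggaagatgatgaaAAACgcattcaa
MYO10 exon 23: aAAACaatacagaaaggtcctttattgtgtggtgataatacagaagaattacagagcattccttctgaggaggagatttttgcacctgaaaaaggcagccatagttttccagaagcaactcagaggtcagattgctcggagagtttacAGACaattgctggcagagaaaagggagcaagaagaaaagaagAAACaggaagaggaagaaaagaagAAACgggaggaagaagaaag

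The word GGAC occurred once in exon 38 of MYH9, once in exon 38 of MYH10 and in none of the other 8 exons shown. Among coding exons of GENCODE within 10 nt of the same length it was present in 61.6% at 209 nt, 61.8% at 207 nt, 34.1% at 94 nt, 29.7% at 79 nt and 65.4% at 234 nt. Any of the 6 words was present in all exons shown, with 1 to 7 copies each, and in 86.6% to 99.4% of the exons of like length.

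Each gene had more listed intervals with METTL3 knockdown than in CSE. MYH14 had 4 intervals in CSE and 11 with knockdown, MYH9 had 2 and 6, and MYH10 had 13 and 14. In class V, MYO5C had 2 and 10, MYO5A 8 and 11, and MYO5B 6 and 7. MYO6 had 4 in CSE and 6 with knockdown, and MYO10 had 3 and 6. The summed ratio was 1.69, beside 1.24 for the whole lists, and nothing is read from its direction because the genes were chosen with these numbers known. The order of the genes by this difference was another among the higher-scoring 50% of either list, where MYO5A differed most, with 1 and 8 intervals, MYH10 had 6 and 12, MYO5C 0 and 4, and MYO10 3 in each list.

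**Figure D1:**
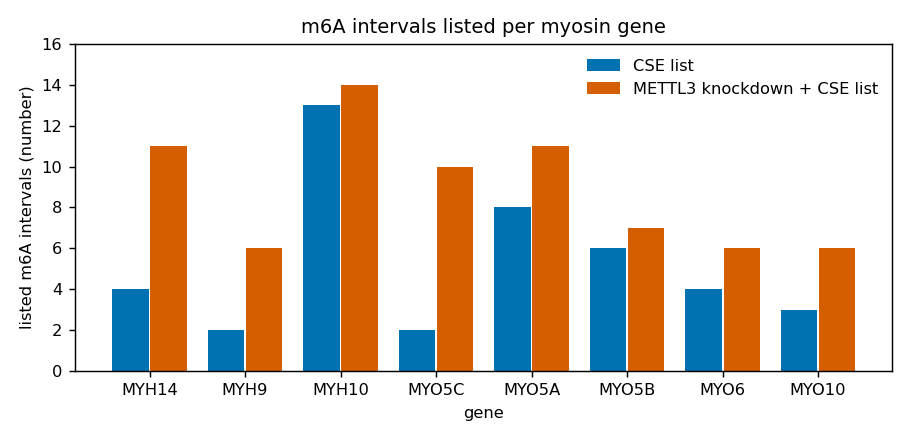
Number of listed m6A intervals (vertical axis) in each myosin gene (horizontal axis), in the CSE list (blue) and the METTL3 knockdown list (orange), with 1 list per condition and therefore no error bars. The largest differences are in MYO5C (2 and 10) and MYH14 (4 and 11), and the smallest in MYH10 (13 and 14) and MYO5B (6 and 7).

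Nearly all CSE intervals recurred in the knockdown list. Of the 42 CSE intervals, 40 recurred with identical borders, 1 recurred with another border and 1 had no overlap, a CSE-only share of 2.38% (Wilson 95% interval 0.422 to 12.3) beside 19.9% of the whole CSE list. Of the 71 knockdown intervals, 30 overlapped no CSE interval, a share of 42.3% (31.5 to 53.8) beside 35.5% of the whole knockdown list. The Wilson interval includes the background share for the knockdown list and not for the CSE list. Neither is a test, because the genes were chosen by their numbers of intervals. These confidence intervals cover counting error only and treat exons as independent. Among the higher-scoring 50% of either list, overlaps were sought only within that part of the other list. So counted, 0.0% of 16 CSE intervals had no overlap, beside 20.1% of all CSE intervals so chosen. Of 46 knockdown intervals 65.2% had none, beside 35.6%. The 65.2% includes exons listed in both lists whose CSE score fell in the lower 50%, such as exon 23 of MYH14. It is therefore not a knockdown-only share. Covered length was 8504 nt in CSE and 13191 nt with knockdown.

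Myosin intervals were short in both lists. The median width was 172 nt in CSE (66 to 876) and 162 nt with knockdown (64 to 876), beside 285 and 218 nt for the whole lists. Widths above 300 nt were found for 3 of 42 CSE intervals (7.14%) and 4 of 71 knockdown intervals (5.63%), beside 48.9% and 41.4% of the whole lists. The knockdown-only intervals had a median width of 135 nt over 30 intervals, beside 175 nt over all 4855 knockdown-only intervals.

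**Figure D2:**
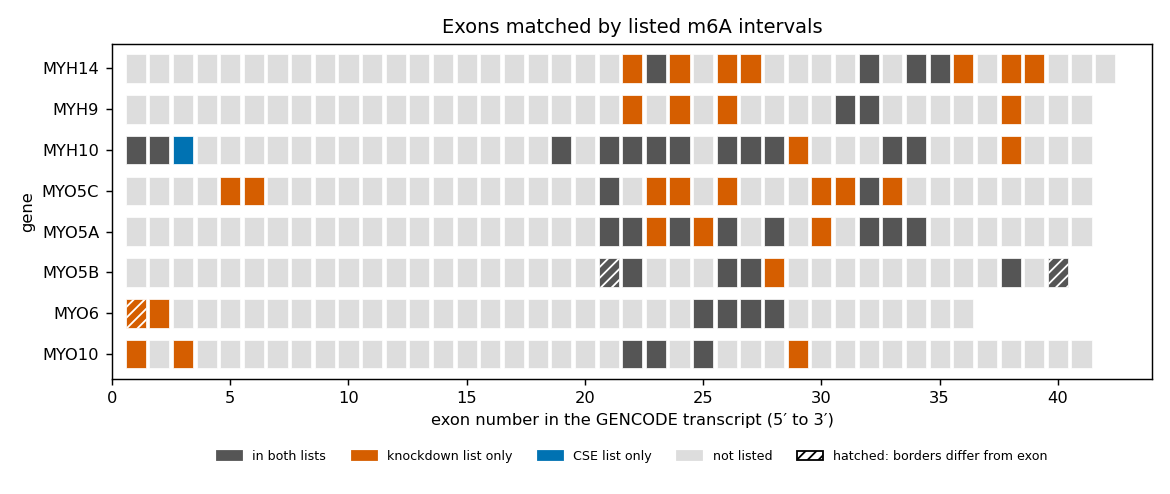
Exons of the 8 genes in transcript order (horizontal axis, exon number), coloured by the list in which a matching interval occurred, with hatching where an interval did not have the borders of the exon. Listed exons sit to the right of exon 18 in MYH14, MYH9, MYO5A and MYO5B, while MYH10, MYO5C, MYO6 and MYO10 also have listed exons near the 5′ end, and the last exon is marked only in MYO5B.

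The listed exons lay mostly in the second 50% of the coding sequence, but in several genes not near its end. Among internal exons that are wholly coding, 49 of 66 listed exons were centred in the second 50% of the coding sequence (74.2%), beside 91 of 237 exons that were not listed (38.4%). In MYO10 the share was 1 of 5 listed exons, beside 14 of 34 others. The last listed exon of this kind was centred at 76.5% of the coding sequence in MYO5C and 79.2% in MYO5A. It was centred at 77.9% in MYO6 and 64.1% in MYO10. In MYH14, MYH9, MYH10 and MYO5B its centre was at 91.1%, 91.5%, 91.1% and 94.3%. No gene had its last exon, which holds the stop codon and the 3′ untranslated region in these genes, listed whole. Part of it was listed in 1 of 8 genes, MYO5B. The first exon was listed, whole or in part, in 3 of 8 genes. The longest internal coding exon was listed in 3 of 8 genes, at 249 nt in MYH14 and MYH9 and at 876 nt in MYO10.

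MYH14 encodes the heavy chain of non-muscle myosin IIC, which is found mainly in epithelia. Its 4 exons listed in both conditions were exon 23 (207 nt), exon 32 (249 nt), exon 34 (213 nt) and exon 35 (162 nt). Their scores, the authors' own values within a list, were 158, 61.6, 111 and 56.9 in the CSE list, in that order, and 614, 636, 487 and 627 in the knockdown list. They stood low in the CSE list, with a median percentile of 18.1, and all 11 knockdown intervals had a median percentile of 59.6 in theirs. The scale of the score is not stated, so the pairs are only set side by side and say nothing of a change in methylation.

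The other 7 MYH14 exons were listed only with knockdown. Exon 24 (138 nt, chr19:50774666-50774803) had the highest score among them, 575, and exon 22 (132 nt, chr19:50770134-50770265) the lowest, 69.2. Between these were exon 38 (124 nt, 410.1), exon 26 (172 nt, 269.9), exon 36 (129 nt, 267), exon 27 (213 nt, 128) and exon 39 (209 nt, 86.5). The exons listed only with knockdown lay between and beside those listed in both conditions, from exon 22 to exon 39.

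MYH9 encodes the heavy chain of non-muscle myosin IIA, the main contractile myosin of many non-muscle cells. Exons 31 (249 nt) and 32 (213 nt) were listed in both conditions. Exons 22 (207 nt), 24 (124 nt), 26 (213 nt, chr22:36691551-36691763) and 38 (209 nt) were listed only with knockdown. All scores of MYH9, in both lists, were 3100, a value at which scores of the whole lists pile up. Among all intervals without an overlap in CSE, 88 of 4855 (1.81%) scored 3100 or more, and 4 of those 88 were the MYH9 exons. Over the whole lists 5.98% of CSE intervals and 8.55% of knockdown intervals scored 3100 or more.

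MYH10 encodes the heavy chain of non-muscle myosin IIB. It had the most intervals of the 8 genes in either list, and 12 of its 13 CSE intervals recurred with the same borders. High scores belonged to a block of neighbouring exons, exon 23 (138 nt, 2117 in CSE and 3100 with knockdown), exon 22 (207 nt, 1489.8 and 3100), exon 21 (132 nt, 1081.9 and 3100) and exon 24 (124 nt, 609.7 and 1631). Exon 33 (213 nt), outside the block, scored 239 in CSE and 2139 with knockdown, above exon 24 in the knockdown list. The remaining shared exons, which include the first exon, wholly untranslated, and exon 2 (376 nt), scored 63.0 to 252 in CSE and 144 to 1044 with knockdown.

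Exon 3 of MYH10 (157 nt, chr17:8508144-8508300) was the only myosin interval of the CSE list without an overlap in the knockdown list. Its score was 94.96, at percentile 22.8 of the CSE list. Exons 29 (105 nt, chr17:8398455-8398559, score 366) and 38 (209 nt, score 130) were listed only with knockdown.

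The 3 heavy chain genes could be compared exon by exon, because they share their exon structure. From exon 6 to exon 40 of MYH9, 33 of 35 exons had the same length in all 3 genes, when counted from the last exon. In the CSE list no exon was listed in all 3 genes, 4 were listed in 2 and 8 in 1. In the knockdown list 3 exons were listed in all 3 genes, 6 in 2 and 8 in 1. The 3 were the exons numbered 22, 26 and 38 in MYH9 and MYH10, and 23, 27 and 39 in MYH14. Exon 38 was in no CSE list entry of any of the 3 genes, and its knockdown scores were 3100 in MYH9, 130 in MYH10 and 86.5 in MYH14.

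In these 3 exons the bases of any pair of genes were 58.9% to 77.5% identical. The longest stretch of identical bases between 2 genes was 29 nt, over the exons listed with knockdown in 2 or 3 genes. The sources used here do not say how reads that fit more than 1 of the genes were placed. Other aligned exons were listed in some of the genes and not in others. Exon 31 was listed in MYH9 and MYH14 in both conditions and not in MYH10, whereas exon 33 (34 in MYH14) was listed in MYH10 and MYH14 and not in MYH9.

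MYO5C encodes a class V myosin of exocrine and other secretory epithelia. Exon 32 (169 nt) scored 122 in CSE and 319 with knockdown, and exon 21 (147 nt) scored 56.8 and 231. Of the 8 knockdown-only exons, 6 were shorter than 100 nt, with 3 exons of 94 nt (23, 26 and 30), 2 of 64 nt (24 and 31) and 1 of 88 nt (33). Their scores were 330.2 for exon 23, 318 for exon 24, 290.3 for exon 31, 113 for exon 30, 59.4 for exon 26 and 57.5 for exon 33. The 94 nt exons were 43.6% to 56.4% identical to one another, and the longest identical stretch was 7 nt. Exons 6 (144 nt, chr15:52564777-52564920, score 233) and 5 (157 nt, chr15:52567759-52567915, score 89.0) lay far upstream, in the part that encodes the motor head.

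MYO5A encodes the class V myosin known for melanosome and vesicle transport. All of its 8 CSE intervals were listed again with the same borders. Exon 32 (199 nt) had the highest CSE score, 419.8, and scored 998 with knockdown, whereas exon 22 (249 nt) had the highest knockdown score, 1036, and 205 in CSE. Exon 21 (240 nt) was the only shared myosin exon with a lower score in the knockdown list, 71.3 against 75.6. The knockdown-only exons were exon 25 (114 nt, chr15:52652165-52652278, score 522), exon 23 (94 nt, score 295) and exon 30 (101 nt, chr15:52638558-52638658, score 266). Exons 23 and 25 filled gaps between shared exons, so that exons 21 to 26 were all listed with knockdown. The neighbours of exon 30, exons 29 and 31, were not listed.

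MYO5B encodes the class V myosin that moves recycling endosomes with RAB11. Exon 38 (175 nt) scored highest in both lists, 727 in CSE and 1088 with knockdown. Exon 28 (240 nt, chr18:47390511-47390750, score 125) was listed only with knockdown. Exon 40, the last, was listed from its 5′ border over 424 nt in CSE and 582 nt with knockdown, out of 3811 nt, with scores of 89.0 and 255. These were the only myosin intervals whose borders differed between lists, and the interval at exon 21 (242 nt) extended 2 nt beyond the 240 nt GENCODE exon in both. Exons 21, 22, 26 and 28 were listed with knockdown in both MYO5A and MYO5B.

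MYO6 encodes myosin VI. Its 4 shared exons, 25 to 28, were neighbours. Exon 26 (209 nt) scored 3100 in both lists, exon 27 (79 nt) scored 2961 in CSE and 3100 with knockdown, exon 25 (151 nt) scored 591 and 1617, and exon 28 (164 nt) scored 177 and 826. At the 5′ end, exon 2 (164 nt, chr6:76527218-76527381, score 165) and an interval of 248 nt (chr6:76458893-76459140, score 172) were listed only with knockdown. The latter ended at the 3′ border of exon 1 and began 16 nt upstream of it.

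MYO10 encodes myosin X. Exon 25 (876 nt), the widest myosin interval of both lists, and exon 23 (234 nt) scored 3100 in both, and exon 22 (107 nt) scored 1348 in CSE and 1507 with knockdown. The 3 knockdown-only exons lay apart from this group and scored low, 209 for exon 1 (489 nt, chr5:16935897-16936385), 92.7 for exon 3 (159 nt, chr5:16818118-16818276) and 64.8 for exon 29 (94 nt, chr5:16685847-16685940). In the knockdown list of MYO6 and MYO10, the exons without a CSE interval scored below every shared exon of the same gene.

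**Figure D3:**
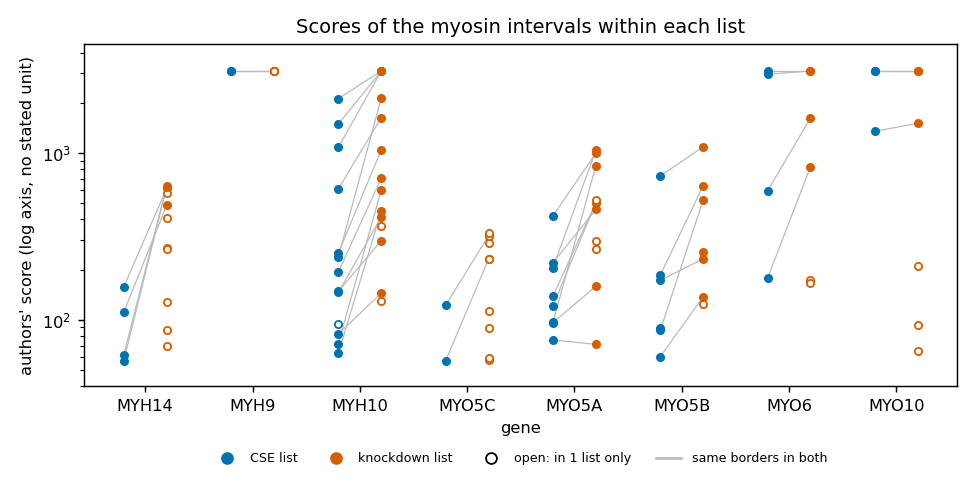
Authors' score (vertical axis, log scale, no stated unit) of each myosin interval by gene, with the CSE list in blue and the knockdown list in orange, lines joining intervals with the same borders and open circles for intervals found in 1 list. Every MYH9 interval sits at 3100, and the open circles of MYO6 and MYO10 lie below the filled ones of those genes.

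Of the 40 intervals with identical borders, 34 had a higher score in the knockdown list (85.0%), 5 had the same score and 1 a lower one. All 5 equal pairs stood at 3100, where scores pile up, in both lists. Over the 7258 such intervals of the whole lists the score was higher in the knockdown list in 73.2%. Within the CSE list, myosin intervals stood at a median percentile of 42.8, and 16 of 42 lay in the upper 50% by score. Within the knockdown list the median percentile was 62.3, with 46 of 71 in the upper 50%. The 30 knockdown-only intervals had a median score of 249.5 (57.5 to 3100), beside 117 over all 4855 knockdown-only intervals.

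Listed exons were rich in A and G. Over the 303 internal coding exons of the 8 genes, the median A and G share was 63.3% in the 66 listed exons (47.8 to 83.5) and 54.2% in the 237 exons that were not listed (33.3 to 77.8). The median over coding exons of GENCODE of at least 50 nt was 52.6%. Exons listed in both conditions and those listed only with knockdown were close, with medians of 63.6% and 62.8%. The highest share belonged to MYO6 exon 27, at 83.5% with an unbroken run of 31 purines, and MYO6 exon 26 had 74.2% with a run of 23.

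The share of exons listed was higher at higher A and G content in both lists. In the CSE list it was 1.82% of 55 exons with up to 50% A and G, 2.47% of 81 exons from 50 to 55%, 11.3% of 71 from 55 to 60%, 24.1% of 54 from 60 to 65%, and 35.7% of 42 exons above 65%. In the knockdown list it was 0 of 55, which allows a share of up to 6.53% by the Wilson interval, then 3.70%, 22.5%, 42.6% and 54.8%. Over all 303 exons 12.9% were listed in CSE and 21.5% with knockdown. Among these 303 internal coding exons, the only listed one with less than 50% was exon 3 of MYH10, the CSE-only one, at 47.8%.

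**Figure D4:**
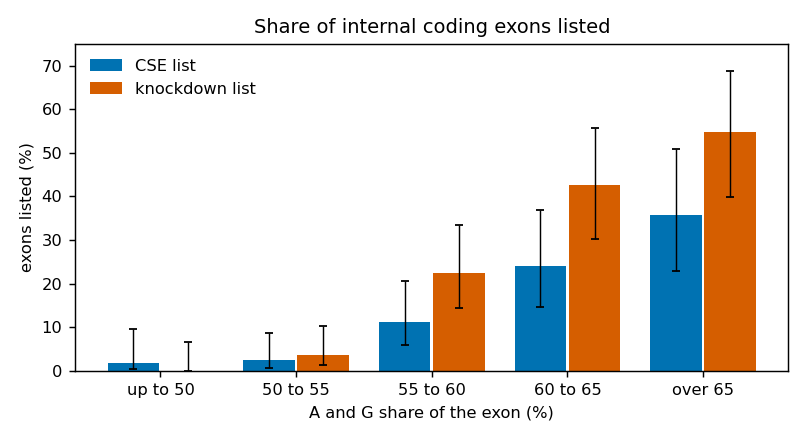
Percentage of internal coding exons of the 8 genes that were listed (vertical axis) in 5 classes of A and G share (horizontal axis), for the CSE list in blue and the knockdown list in orange, with Wilson 95% intervals that cover counting error only. The bars climb from 1.82% to 35.7% in CSE and from 0 to 54.8% with knockdown.

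The words of the m6A core were about as frequent in listed as in other exons. GGAC was present in 28 of 66 listed exons, 42.4% (31.2 to 54.4), and in 93 of 237 others, 39.2% (33.2 to 45.6). It was present in 43.9% of the GENCODE coding exons of 64 to 249 nt, the length range of the listed exons outside MYO10. Per 1000 nt there were 4.75 copies in listed exons and 4.27 in the others. Any of the 6 words was found in 95.5% of listed exons and 94.5% of the others, at 25.1 and 23.6 per 1000 nt. GGAC was absent from MYO6 exons 26 and 27 and MYO10 exon 23, and exon 25 of MYO10 held 10 copies in its 876 nt. Exons 31 and 32 of MYH9, which also scored 3100 in both lists, held 5 copies and 1.

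Exons above 200 nt were listed more often than shorter ones. With knockdown 12.1% of 91 exons up to 100 nt were listed (Wilson 95% interval 6.89 to 20.4), 19.0% of 100 exons from there to 150 nt, 16.2% of 68 exons from there to 200 nt, and 54.5% of 44 exons above 200 nt (40.1 to 68.3). In CSE 3.30% of the shortest class were listed, then 10 of 100 exons, 13.2% and 38.6%. The difference in A and G share was present in exons up to 150 nt, with medians of 64.2% in listed and 54.8% in other exons, and in longer ones, with 62.8% and 53.6%. In class V exons of the second 50% of the coding sequence the medians were 63.8% and 55.2%, but in the same part of the myosin II genes they were 63.1% and 63.4%. In the first 50% of the myosin II genes the medians were 65.7% over 9 listed and 51.6% over 55 unlisted exons. Composition, length, position and class move together across these exons, and their separate part in the listing was not tested.

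**Figure D5:**
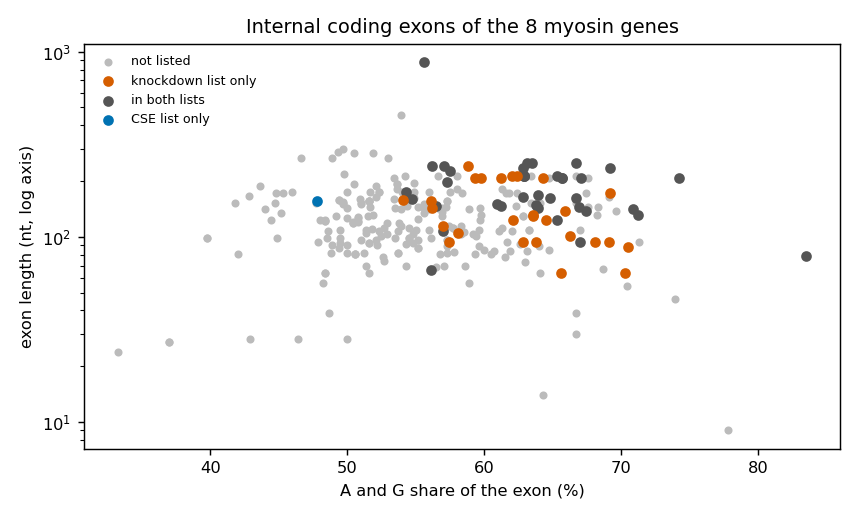
A and G share (horizontal axis, %) and length (vertical axis, nt, log scale) of the 303 internal coding exons of the 8 genes, each point being 1 exon, coloured by the list in which it occurred. Listed exons sit at 54.1% or more apart from the CSE-only exon of MYH10 at 47.8%, and the point at the top is the 876 nt exon of MYO10.

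Transcript levels are not part of the lists, so the number of listed exons of a gene cannot be set against the amount of its mRNA, and a change in methylation per molecule cannot be told apart from a change in transcript level. No member was near a window border in a way that decides the counts: the member nearest to a border lay 615 nt inside it, in MYO10, and the nearest other interval of the same strand lay 27296 nt outside the window of MYO5A.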

How the data were processed

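The authors deposited 1 list of m6A intervals per condition, each line giving a position, a strand, a name and a score. The submitters' processing notes name HISAT2 2.0.4 and the build hg19. The deposited score of an interval is the authors' own value, on a scale that is not stated; names start with MACS, and its settings, the pooling of the 3 replicates per condition named in the design text and the choice of listed calls are not stated in any source used here. Depth is unknown; Wilson intervals cover counting error only.

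Members and gene lists were chosen with earlier results of these data known. All 8 genes are named, with every interval lacking an overlap, and the highest-scoring and widest ones. Overlap means at least 1 bp on the same strand. Exons of GENCODE release 29 were matched by width and spacing alone. A and G content, its classes, exon length classes and the exons printed were chosen after seeing the data. The other pathway genes were not run, since no annotation of hg19 was used. Overlap and exon matching were tested on simulated data. Python 3.11.15 and SciPy 1.17.1 were used. The sequence of 1 exon is not reported here.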

Additional observations from a re-analysis of the deposited data

How the results depend on the processing

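Of 124 values under alternatives, 103 stayed within counting error or within 1.5 times the reported value, 21 moved and 0 reversed. Each of the 21 was obtained with the upper 50% of each list by score, which keeps fewer intervals by construction. Under that setting overlaps were sought only within the upper 50%, so a shared exon counted as without an overlap where its partner was cut. There the 8 genes held 16 CSE and 46 knockdown intervals, covering 3682 and 8522 nt, and the share without an overlap was 0.0% in CSE and 65.2% with knockdown, beside 20.1% and 35.6% of the whole lists under the same setting. The difference between lists was then 7 in MYO5A (reported 3), 6 in MYH10 (1), 6 in MYH14 (7), 4 in MYO5C (8), 4 in MYH9 (4), 2 in MYO5B (1), 1 in MYO6 (2) and 0 in MYO10 (3), so MYO5C was no longer the largest nor MYH10 among the smallest. Either strand, windows widened by 10 kb and intervals wholly inside the window returned every count unchanged, and most of the 103 values come from these settings. Widening could add no interval of the same strand, as the nearest one lay 27296 nt outside a window. Reciprocal overlap of 50%, identical borders and leaving out MYH14 left every value within those limits. No paired analysis was possible because each condition has 1 list. The unknown read depth limits what an absent interval shows.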

Other observations

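The names of the intervals carry running numbers that rise along each chromosome, and many numbers are not in the lists. Between the listed CSE intervals of either strand that flank each of the 30 knockdown-only myosin intervals, 1 to 17 CSE numbers were unlisted. How often such a gap holds unlisted numbers over the whole lists was not counted, so nothing is read from this range. For exons 24, 26 and 27 of MYH14 the gap was shared and held 2 unlisted numbers for 3 intervals. For exons 23 and 25 of MYO5A each gap held 1. The gap of the knockdown list at exon 3 of MYH10 held 3. What the unlisted numbers stand for was not tested.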
